A study of Mus musculus with 41 samples.

Results

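Forkhead genes encode transcription factors that share one DNA-binding domain. They were taken as every gene whose symbol is Fox, a letter and a number, with antisense transcripts left out, and 44 of the 24371 genes in the deposited tables met this rule. The levels below are CPM, a gene's count scaled to a common library total. They were measured in 11 bulk libraries and 26 single cells from lungs of fetal mice.

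Forkhead factors act in most lineages of the lung. Foxa1 and Foxa2 bind closed chromatin and serve epithelial differentiation, Foxf1 and Foxf2 act in mesenchyme downstream of hedgehog signalling, and Foxj1 drives motile cilia. Foxp1, Foxp2 and Foxp4 are repressors active in airway epithelium and mesenchyme, Foxm1 drives entry into mitosis, and the Foxo factors, held out of the nucleus by insulin and AKT signalling, turn on genes of growth arrest, fasting and stress resistance.

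The study asked how glucocorticoids act on lung mesenchyme before birth. Dexamethasone (Dex) is a synthetic glucocorticoid. In the first set, dams carrying Twist2Cre;Rosa26mT/mG fetuses received 1 mg/kg Dex or saline at E18.5, and 2 h later GFP+ cells negative for tdTomato were sorted from lungs pooled by genotype, giving 4 Dex and 2 Saline pools. Cre driven from Twist2 switches its reporter in cells with past or present Twist2 activity and in their descendants, and the strain of these mice is not stated in the labels. In the second set, at E18.5, 2 libraries of CD106+ lung cells were set against 2 libraries of CD106- cells, and 1 further CD106+ library came from Dex treatment at 1 mg/kg. CD106 is the adhesion protein encoded by Vcam1, and the labels give neither the genotype nor the time after Dex for these 5 libraries. In the third set, wild type C57Bl6/J dams received 2 mg/kg Dex or saline at E17.5, and 15 Dex cells and 11 Saline cells were profiled 24 h later. No label states whether different litters supplied the replicates, so each p-value reflects spread among these libraries only, and that spread may be technical.

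Bulk libraries held 1670896 to 7133941 counts and single cells 215623 to 1787997. Twist2 itself stood at 0 to 0.901 CPM in the 6 sorted pools, while the 12 mesenchymal markers summed to 10483 to 11368 CPM in Dex pools and 10804 to 14183 CPM in Saline pools. Vcam1 stood at 551 and 687 CPM in CD106+ libraries, against 1.35 and 3.00 CPM in CD106- libraries. The CD106- libraries were rich in epithelial RNA, and the Dex CD106+ library stood apart by its endothelial RNA, as given beside the results. In these bulk samples, fewer cells of a type and less RNA per cell cannot be told apart. Exon lengths were not at hand, so no order of levels between genes is given.

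Of the 44 forkhead genes, 39 had a count in at least 1 bulk library and 17 had counts in all 11, taking values that round to 0 as no count. A group mean of 10 CPM or more was reached by 20 of them, 9 peaked between 1 and 10 CPM, and 15 stayed below 1 CPM in every bulk group. No count fell on Foxe1, Foxe3, Foxi2, Foxi3 or Foxl2 in any bulk library or cell. Summed over the family, the forkhead level was 1345 to 1722 CPM in Dex mesenchyme, 1215 to 1290 CPM in Saline mesenchyme, 1391 CPM in the Dex CD106+ library, 1697 and 1972 CPM in CD106+ libraries, and 2598 and 2753 CPM in CD106- libraries. Some values of Foxj3, Foxp1, Foxp2 and Foxp3 were not whole numbers. The largest distance from a whole count was 0.01 for Foxj3, 0.03 for Foxp1, 0.12 for Foxp2 and 0.49 for Foxp3.

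The 9 genes that peaked between 1 and 10 CPM were Foxa3, Foxb1, Foxd1, Foxj1, Foxl1, Foxn4, Foxo6, Foxp3 and Foxs1. Foxs1, a gene of perivascular cells, had counts in all 6 mesenchyme pools, at 1.13 to 2.84 CPM in Dex pools and 2.39 and 1.23 CPM in Saline pools. In the 5 CD106 libraries it stood at 0 to 0.28 CPM. Foxj1, the master regulator of ciliated cells, stood at 5.01 CPM in the Dex CD106+ library, at 3.41 and 4.63 CPM in CD106+ libraries and at 1.73 and 4.16 CPM in CD106- libraries, against 0 to 2.70 CPM over the mesenchyme pools. Foxp3, which defines regulatory T cells, varied widely between replicates, at 1.17, 7.65, 1.76 and 7.54 CPM in Dex pools and 11.97 and 0.45 CPM in Saline pools. Its span overlaps those of Flicr and Ccdc22, and 72.7% of its bulk values lay more than 0.05 counts from a whole number.

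Several forkhead genes lie next to one another in the mouse genome (GRCm38). Foxq1, Foxf2 and Foxc1 follow each other on chromosome 13, with gaps of 64.8 and 175 kb, and Foxf1, Foxc2 and Foxl1 lie within one stretch of chromosome 8, with gaps of 28.02 and 8.79 kb. RefSeq promoters of 300 bases (250 before a start and 50 from it, GRCm38.p6) were at hand for 28 of the genes, 33 promoters in all. Their median content was 22 CpG dinucleotides and 62.7% G or C, against 7 and 52.7% over all 32851 promoters. Both strands were searched for GTAAACA, a core forkhead motif, and for the consensus glucocorticoid response element, a palindrome bound by the receptor. The forkhead motif stood in 1 of the 33, a Foxa1 promoter, against 3.65% of all promoters. The receptor motif stood in 1 of the 33, the Foxj2 promoter, against 0.475% of all promoters. The 4 promoters below belong to the genes that rose and fell in mesenchyme after Dex, Foxo3 and Foxc1, and to the genes whose windows hold a motif, shown in capitals. They are Foxo3 (chr10:42276646-42276945, minus strand), Foxc1 (chr13:31806396-31806695, plus strand), Foxa1 (chr12:57546062-57546361, minus strand) and Foxj2 (chr6:122819934-122820233, plus strand).
Foxo3: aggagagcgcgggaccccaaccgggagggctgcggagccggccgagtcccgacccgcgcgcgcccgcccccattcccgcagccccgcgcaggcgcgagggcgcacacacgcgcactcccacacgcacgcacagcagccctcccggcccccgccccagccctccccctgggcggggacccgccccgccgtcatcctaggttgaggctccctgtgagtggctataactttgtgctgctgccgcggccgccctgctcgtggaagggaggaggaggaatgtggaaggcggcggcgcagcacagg
Foxc1: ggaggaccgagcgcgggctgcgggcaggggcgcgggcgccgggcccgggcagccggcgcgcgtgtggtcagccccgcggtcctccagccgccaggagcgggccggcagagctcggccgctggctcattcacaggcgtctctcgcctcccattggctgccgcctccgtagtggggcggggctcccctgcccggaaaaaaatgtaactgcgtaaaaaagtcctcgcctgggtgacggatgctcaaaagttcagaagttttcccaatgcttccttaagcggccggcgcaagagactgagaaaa
Foxa1: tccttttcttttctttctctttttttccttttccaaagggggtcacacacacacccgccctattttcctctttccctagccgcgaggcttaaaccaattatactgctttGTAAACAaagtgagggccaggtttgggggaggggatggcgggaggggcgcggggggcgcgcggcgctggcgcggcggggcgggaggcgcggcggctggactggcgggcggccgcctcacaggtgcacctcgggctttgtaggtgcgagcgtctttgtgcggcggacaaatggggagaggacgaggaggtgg
Foxj2: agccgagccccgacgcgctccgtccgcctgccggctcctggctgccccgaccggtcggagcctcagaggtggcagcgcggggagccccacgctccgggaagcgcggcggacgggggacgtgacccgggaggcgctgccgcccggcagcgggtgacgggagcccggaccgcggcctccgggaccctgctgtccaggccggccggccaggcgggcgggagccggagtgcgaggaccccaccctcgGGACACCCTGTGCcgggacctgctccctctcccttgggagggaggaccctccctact
The Foxa1 motif begins at base -141, counted from -1 just before the start, and the Foxj2 motif at base -7. The windows of Foxo3 and Foxc1 hold neither string of letters.

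The first question was which forkhead genes changed in mesenchyme 2 h after Dex. Foxo3 rose and Foxc1 fell, and these were the 2 of 19 tested forkhead genes that passed the threshold of an adjusted p under 0.05 (edgeR, over all 11356 genes tested). Across all genes 2.69% passed, 1.95% upward and 0.74% downward. The median log2 fold change of the 19 was -0.13, against -0.01 over all genes. A further 25 forkhead genes were too low to test.

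Foxo3 encodes a factor that promotes cell cycle arrest, autophagy and stress resistance (chromosome 10, 42181845 to 42276695). Its level was 495, 284, 306 and 327 CPM in the 4 Dex pools, against 127 and 114 CPM in the 2 Saline pools. Every Dex pool lay above both Saline pools, and Dex pool 1 was the highest. The means were 353 ± 96.3 and 121 ± 8.87 CPM (SD, n = 4 and 2), and the log2 fold change was 1.61 with an SE of 0.27 (edgeR adjusted p = 0.0021). Omitting any single pool kept the rise past the threshold, at log2 fold changes of 1.41 to 1.76. The span of Foxo3 overlaps that of the non-coding gene Gm38485, and the use of strand in counting is not given in the sources used here, so reads of the pair cannot be told apart.

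Foxo1, the paralogue that carries insulin responses in liver and restrains vessel growth, lay in the same direction without passing the test in edgeR. It stood at 234, 217, 194 and 180 CPM in Dex pools, against 132 and 124 CPM in Saline pools, with no overlap (log2 fold change 0.74, SE 0.23, edgeR adjusted p = 0.10). DESeq2 placed Foxo1 past the threshold (adjusted p = 0.040), while limma-voom did not (adjusted p = 0.11). Foxo4 stood at 2.72 to 9.05 CPM in Dex pools and at 9.58 and 4.94 CPM in Saline pools, which overlapped.

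Foxk1, a nutrient-sensing factor that represses autophagy genes and promotes glycolysis, stood at 144, 90.7, 110 and 113 CPM in Dex pools, against 65.8 and 51.8 CPM in Saline pools. The groups did not overlap, and the log2 fold change was 1.02 with an SE of 0.28 (edgeR adjusted p = 0.061). DESeq2 placed Foxk1 past the threshold (adjusted p = 0.020), while limma-voom did not (adjusted p = 0.076). Its paralogue Foxk2 stood at 34.3 to 59.4 CPM in Dex pools and at 45.5 and 58.0 CPM in Saline pools.

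Foxc1 encodes a factor of mesenchyme, cartilage and vessel development (chromosome 13, 31806646 to 31810635). Its level was 4.97, 7.48, 12.2 and 10.6 CPM in Dex pools, against 39.5 and 27.97 CPM in Saline pools, or 21 to 28 counts per Dex pool and 66 and 68 per Saline pool. Every Dex pool lay below both Saline pools. The log2 fold change was -1.90 with an SE of 0.46 (edgeR adjusted p = 0.034). The call was lost without any one of Dex pools 1, 2 or 4 or either Saline pool (edgeR adjusted p = 0.057 to 0.27) and was kept without Dex pool 3.

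Foxc2, which acts in lymphatic valves and the skeleton, stood at 0, 0, 3.15 and 1.13 CPM in Dex pools, against 16.2 and 5.35 CPM in Saline pools. The groups did not overlap, but counts were few and the test was not passed (log2 fold change -3.37, SE 1.19, edgeR adjusted p = 0.17). Foxq1, the neighbour of Foxf2, stood at 6.63, 2.38, 2.25 and 3.39 CPM in Dex pools and at 19.8 and 3.29 CPM in Saline pools, where Saline pool 1 alone was high. Foxl1, a factor of fibroblasts beside the gut epithelium, was too low to test, at 0 to 0.75 CPM in Dex pools and 0.60 and 9.87 CPM in Saline pools.

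Foxf2 stood at 65.6, 46.2, 45.5 and 58.1 CPM in Dex pools, against 80.2 and 114 CPM in Saline pools. The groups did not overlap (log2 fold change -0.78, SE 0.28, edgeR adjusted p = 0.17). Foxf1, its close paralogue and a gene required for lung vessels and mesenchyme, stood at 84.99, 72.4, 57.6 and 89.8 CPM in Dex pools and at 65.2 and 75.7 CPM in Saline pools. Those groups overlapped (log2 fold change 0.18, SE 0.28, edgeR adjusted p = 0.86).

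The remaining forkhead genes at 10 CPM or more in mesenchyme overlapped between Dex and Saline pools. Foxp1 stood at 114 to 136 CPM in Dex pools and at 135 and 114 CPM in Saline pools, and Foxp2 at 56.8 to 64.4 CPM in Dex pools and at 82.0 and 54.3 CPM in Saline pools. Foxm1 stood at 26.4 to 49.6 CPM in Dex pools and at 35.3 and 68.7 CPM in Saline pools, and the groups overlapped. Foxj3 stood at 146 to 225 CPM in Dex pools and at 199 and 183 CPM in Saline pools. Foxj2, with the loose receptor motif in its promoter, held 47.1 to 83.3 CPM in Dex pools and 83.2 and 92.5 CPM in Saline pools. For Foxn3, a repressor linked to checkpoint control, Dex pools held 44.5 to 84.3 CPM and Saline pools 44.9 and 48.9 CPM, and for its relative Foxn2 Dex pools held 30.9 to 58.5 CPM and Saline pools 64.0 and 46.1 CPM. Among the 19 tested genes, 3 lay higher in Dex pools without overlap (Foxo3, Foxk1, Foxo1) and 3 lower (Foxc1, Foxc2, Foxf2), against 9.99% and 13.0% of all genes (23.0% in either direction). The 13 with an unadjusted p of 0.05 or more had log2 fold changes of -1.57 to 0.30 and edgeR adjusted p of 0.40 to 0.98.

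**Figure D1:**
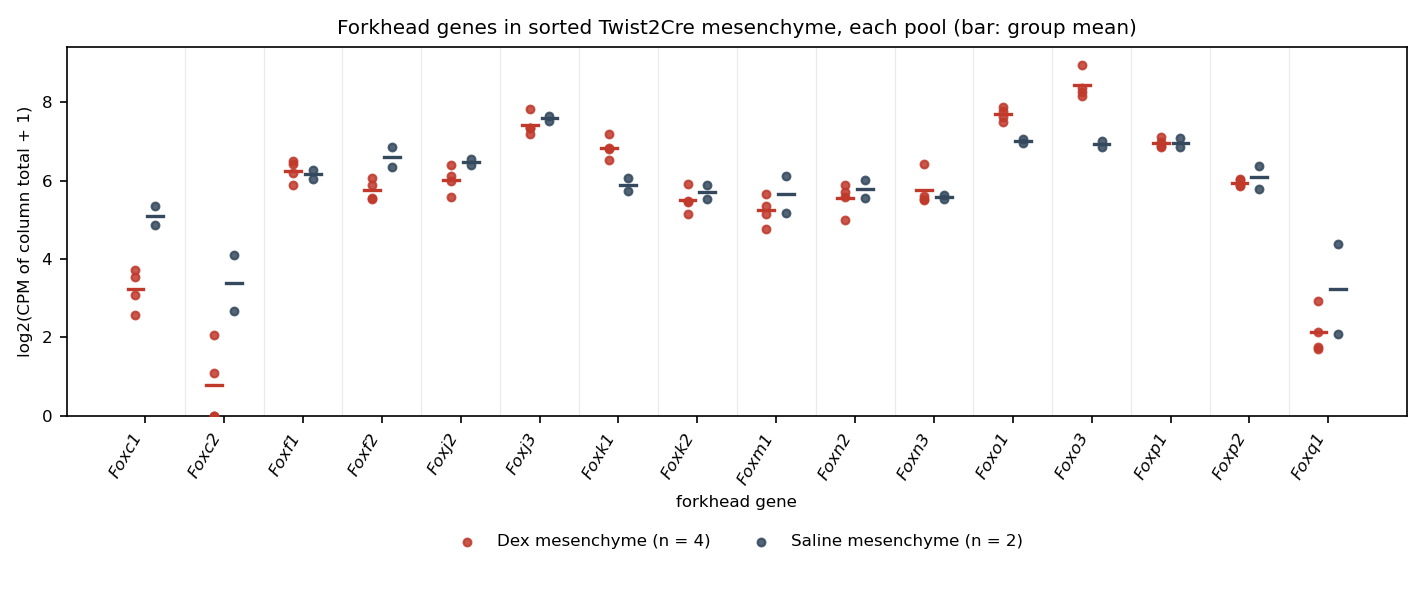
Level of 16 forkhead genes in each sorted mesenchyme pool as log2(CPM of column total + 1), with Dex pools (n = 4) left of Saline pools (n = 2) and bars at the group mean of the plotted values. The 4 Dex points of Foxo3 lie above both Saline points and those of Foxc1 below both.

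Other RNA differed between these pools. The 9 chondrocyte markers summed to 8.29 to 331 CPM in Dex pools and 512 to 1292 CPM in Saline pools, with Col2a1 at 6.15 to 247 and 403 to 1090 CPM. Xist, transcribed in female cells, stood at 6.59 to 11111 CPM in Dex pools and 20880 to 33133 CPM in Saline pools. Ddx3y, a gene of the Y chromosome, stood at 74.4 to 174 CPM in Dex pools and at 1.20 and 0 CPM in Saline pools. Kdm5d, another, stood at 50.6 to 183 CPM in Dex pools and at 1.80 and 0 CPM in Saline pools. Every Dex pool thus held male RNA and the Saline pools almost none, so fetal sex and Dex cannot be fully told apart. With the chondrocyte markers as a covariate, Foxo3 had a log2 fold change of 1.23 (edgeR adjusted p = 0.36), Foxc1 one of -0.90 (adjusted p = 0.997) and Foxc2 one of 0.05, and 27 of all genes passed. With Xist as a covariate, Foxo3 had one of 1.62 (edgeR adjusted p = 0.019) and Foxc1 one of -2.47 (adjusted p = 0.11). The 13 endothelial markers summed to 82.0 to 223 CPM in Dex pools and 88.8 to 186 CPM in Saline pools, which overlapped. The 6 heart muscle markers summed to 156 to 280.3 CPM in Dex pools and 328 to 379 CPM in Saline pools, which did not, and their part in the forkhead differences was not tested.

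Genes known as Foxo targets were read from the same fit. This list and the gene lists below were chosen with earlier results of these data known, so their shares are descriptive only. Of 24 Foxo targets tested, 8 rose and none fell, against 1.95% and 0.74% of all genes. Their median log2 fold change was 0.73, against -0.01 over all genes. This list was not read from the fit with the chondrocyte covariate. Pdk4, a kinase that restrains pyruvate oxidation, averaged 228 ± 26.9 CPM in Dex pools and 37.3 ± 11.5 CPM in Saline pools (log2 fold change 2.68, edgeR adjusted p = 3.6e-05). Bnip3, a receptor for mitophagy, averaged 170 ± 44.1 CPM in Dex pools and 35.2 ± 1.47 CPM in Saline pools (log2 fold change 2.34, edgeR adjusted p = 2.2e-04). Cdkn1a, an inhibitor of cyclin-dependent kinases, averaged 62.6 ± 15.5 CPM in Dex pools and 8.66 ± 4.68 CPM in Saline pools (log2 fold change 2.95, edgeR adjusted p = 8.4e-04). Txnip, an inhibitor of thioredoxin and of glucose uptake, had a log2 fold change of 1.33 (edgeR adjusted p = 0.013, and 0.14 without Saline pool 2). The first 3 stayed past the threshold without each pool in turn, and the number of the 24 that passed was 3 without Saline pool 2 and 9 without Dex pool 3. Several of these genes are also known targets of the glucocorticoid receptor itself.

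Among regulators of Foxo factors, Pik3r1, a subunit of PI3 kinase, rose. Pik3r1 averaged 1017 ± 171 CPM in Dex pools and 535 ± 173 CPM in Saline pools (log2 fold change 0.98, edgeR adjusted p = 0.046). The call was lost without any one of Dex pools 1, 2 or 4 or without Saline pool 2. Of 14 tested genes of the hedgehog and Foxf programme, none rose and 1 fell, the hedgehog receptor Ptch1 (log2 fold change -1.18, edgeR adjusted p = 0.0081, and 0.16 without Saline pool 2). None of 15 mitotic targets of Foxm1 passed in edgeR or DESeq2, while 7 had an unadjusted p under 0.05, all with lower values in Dex pools. Their median log2 fold change was -0.9985. It was -0.07 without Saline pool 2, with none passing, and -1.43 without Saline pool 1, with 3 passing. None of 5 ciliary or 11 vascular genes passed in edgeR or DESeq2, with 0 and 2 at an unadjusted p under 0.05. Of 13 genes of the Foxa programme, 1 rose, Hopx, which marks alveolar type 1 cells (log2 fold change 2.86, edgeR adjusted p = 0.0085, and 0.085 without Saline pool 2). At an unadjusted p under 0.05, 2 of the 13 had lower values in Dex pools. The median log2 fold change of the 13 was -0.68. It was -1.69 without Dex pool 3 and 2.54 without Saline pool 1. Of 19 partners of forkhead proteins, 1 fell, Runx1 (log2 fold change -1.46, edgeR adjusted p = 0.036), a call kept only without Dex pool 3.

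The second question was how CD106+ and CD106- cells differed. Foxf1 and Foxf2 were higher in CD106+ cells, and Foxa1, Foxp2, Foxp1 and Foxo3 were lower. These were 6 of 21 forkhead genes tested, against 10.0% of all 12364 genes, with 6.67% higher and 3.35% lower. The other 15 did not pass, and 23 were too low to test. The median log2 fold change of the 21 was -0.19, against 0.05 over all genes.

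Foxf2 stood at 74.2 and 111 CPM in CD106+ libraries, against 8.46 and 18.48 CPM in CD106- libraries. Foxf1 stood at 58.2 and 68.8 CPM in CD106+ libraries, against 9.04 and 18.6 CPM in CD106- libraries. Both CD106+ libraries lay well above both CD106- libraries for each gene. The log2 fold change was 2.71 for Foxf2 (SE 0.37, edgeR adjusted p = 2.1e-05) and 2.13 for Foxf1 (SE 0.37, edgeR adjusted p = 2.8e-04). Both calls were kept without each library in turn, at log2 fold changes of 2.22 to 3.43 and 1.67 to 2.79.

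Foxa1 (chromosome 12, 57540628 to 57548029) stood at 44.9 and 38.0 CPM in CD106+ libraries, against 114 and 97.5 CPM in CD106- libraries. The log2 fold change was -1.39 with an SE of 0.29 (edgeR adjusted p = 0.0016, and 0.061 without CD106- library 1). The gene shares part of its span with Ttc6. Foxa2 had 5.81 and 8.13 CPM in CD106+ libraries and 14.6 and 10.7 CPM in CD106- libraries, without overlap (log2 fold change -0.90, SE 0.52, edgeR adjusted p = 0.38). In sorted mesenchyme Foxa1 stood at 0 to 6.58 CPM and Foxa2 at 0 to 4.19 CPM over the 6 pools.

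Foxp2, a repressor of the distal airway epithelium, stood at 544 and 287 CPM in CD106+ libraries, against 919 and 888 CPM in CD106- libraries. The CD106+ libraries differed widely from each other, and both lay below the CD106- libraries (log2 fold change -1.14, SE 0.34, edgeR adjusted p = 0.034). Foxp1, which works with it, stood at 217 and 149 CPM in CD106+ libraries, against 351 and 376 CPM in CD106- libraries (log2 fold change -1.02, SE 0.29, edgeR adjusted p = 0.024). Foxo3 stood at 167 and 123 CPM in CD106+ libraries, against 261 and 303 CPM in CD106- libraries (log2 fold change -0.998, SE 0.29, edgeR adjusted p = 0.023). The calls of Foxp2, Foxp1 and Foxo3 were each lost without either CD106- library, at edgeR adjusted p of 0.14 to 0.40. Foxp4, the third repressor of this class in lung, stood at 22.9 and 30.4 CPM in CD106+ libraries and at 32.7 and 31.0 CPM in CD106- libraries (edgeR adjusted p = 0.74).

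Among forkhead genes that did not pass, Foxo1 stood at 115 and 96.2 CPM in CD106+ libraries and at 151 and 191 CPM in CD106- libraries (log2 fold change -0.74, edgeR adjusted p = 0.10). Foxm1 stood at 132 and 183 CPM in CD106+ libraries and at 112 and 117 CPM in CD106- libraries (log2 fold change 0.41, edgeR adjusted p = 0.47). Foxj1 overlapped between the fractions (edgeR adjusted p = 0.87). Foxn3 stood at 128 and 86.2 CPM in CD106+ libraries and at 133 and 136 CPM in CD106- libraries. Foxj3 stood at 180 and 146 CPM in CD106+ libraries and at 204 and 186 CPM in CD106- libraries (edgeR adjusted p = 0.66). Foxk1, Foxk2, Foxj2, Foxn2 and Foxo4 overlapped between fractions, with log2 fold changes of -0.19 to 0.05. Foxc1 and Foxc2 stood below 1 CPM in all 4 libraries. In all, 4 of the 21 genes lay higher in CD106+ libraries without overlap and 9 lower, against 25.7% and 22.1% of all genes (47.7% in either direction).

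**Figure D2:**
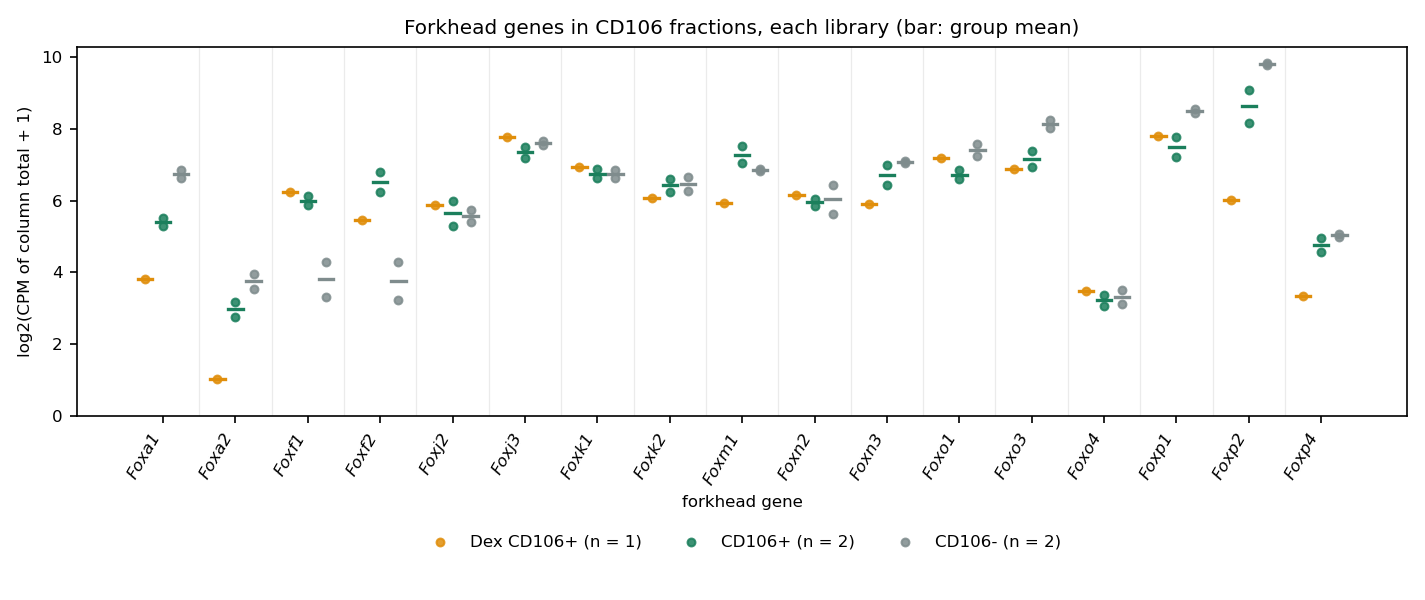
Level of 17 forkhead genes in each library of the CD106 fractions as log2(CPM of column total + 1), with the Dex CD106+ library left of the 2 CD106+ and the 2 CD106- libraries and bars at the group mean of the plotted values. Foxf1 and Foxf2 lie high in all 3 CD106+ libraries, and Foxa1 and Foxp2 are lowest in the Dex CD106+ library and highest in CD106- libraries.

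Cell markers moved with the fractions. The 12 mesenchymal markers summed to 5813 and 8500 CPM in CD106+ libraries, against 952 and 1413 CPM in CD106- libraries, and the 14 epithelial markers to 2785 to 4435 CPM in CD106+ libraries and 5857 to 6367 CPM in CD106- libraries, with counts of all 14 in every library. The 13 endothelial markers summed to 128 to 146 CPM in CD106+ libraries and 17.48 to 26.4 CPM in CD106- libraries, and the 6 heart muscle markers to 71.4 to 971 CPM in CD106+ libraries and 23.0 to 92.9 CPM in CD106- libraries. Their part in the forkhead differences was not tested.

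Genes of the hedgehog and Foxf programme were read from the same fit. Tbx4, Tbx5 and Tcf21 among them are also mesenchymal markers summed above. Of 15 tested, 9 were higher in CD106+ cells and none lower, while 2, Shh and Bmp4, had lower values in CD106+ libraries at an unadjusted p under 0.05. The list had a median log2 fold change of 2.26 against 0.05 over all genes, and 8 to 14 passed when a library was left out. The growth factor gene Fgf10 averaged 98.2 ± 24.3 CPM in CD106+ libraries and 1.41 ± 0.36 CPM in CD106- libraries (SD, n = 2 each; log2 fold change 6.03, edgeR adjusted p = 2.0e-10). Hoxa5, a patterning gene, averaged 69.3 ± 3.48 CPM in CD106+ libraries and 6.92 ± 0.81 CPM in CD106- libraries (log2 fold change 3.28, edgeR adjusted p = 5.4e-07). The hedgehog effector Gli1 averaged 42.7 ± 22.1 CPM in CD106+ libraries and 2.95 ± 1.72 CPM in CD106- libraries (log2 fold change 3.76, edgeR adjusted p = 1.2e-05). Wnt2, a mesenchymal signal for lung specification, averaged 31.4 ± 23.7 CPM in CD106+ libraries and 0.10 ± 0.14 CPM in CD106- libraries (edgeR adjusted p = 1.2e-06).

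Of 14 genes of the Foxa programme, 9 were lower in CD106+ cells and none higher, with a median log2 fold change of -1.02. Most of these 14 are also epithelial markers summed above, so the lists are not separate readings. Sox9, a factor of distal epithelium and cartilage, averaged 64.4 ± 0.26 CPM in CD106+ libraries and 160 ± 10.9 CPM in CD106- libraries (log2 fold change -1.36, edgeR adjusted p = 0.0012). Sftpb, which encodes surfactant protein B, averaged 205 ± 7.26 CPM in CD106+ libraries and 483 ± 65.4 CPM in CD106- libraries (log2 fold change -1.28, edgeR adjusted p = 0.0037). Muc1 and Lamp3, of the apical surface and of lamellar bodies, had log2 fold changes of -1.26 and -1.29 (edgeR adjusted p = 0.0048 and 0.0065). None of the 14 passed without CD106- library 2. Of 9 vascular genes, 4 were higher in CD106+ cells (Cdh5, Pecam1, Tek and Prox1) and none lower, and without CD106- library 2 the number was 2. Cdh5, Pecam1 and Tek are also endothelial markers summed above. None of 16 Foxm1 targets, 12 ciliary genes or 17 Foxo regulators passed in edgeR or DESeq2, with 0, 3 and 2 at an unadjusted p under 0.05. Of 24 Foxo targets Pdk4 passed (log2 fold change 2.72, edgeR adjusted p = 0.020, kept without CD106+ library 2 and lost without any other), and of 18 partners Runx1 (log2 fold change -0.98, edgeR adjusted p = 0.026, kept without CD106+ library 1 and lost without any other).

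**Figure D3:**
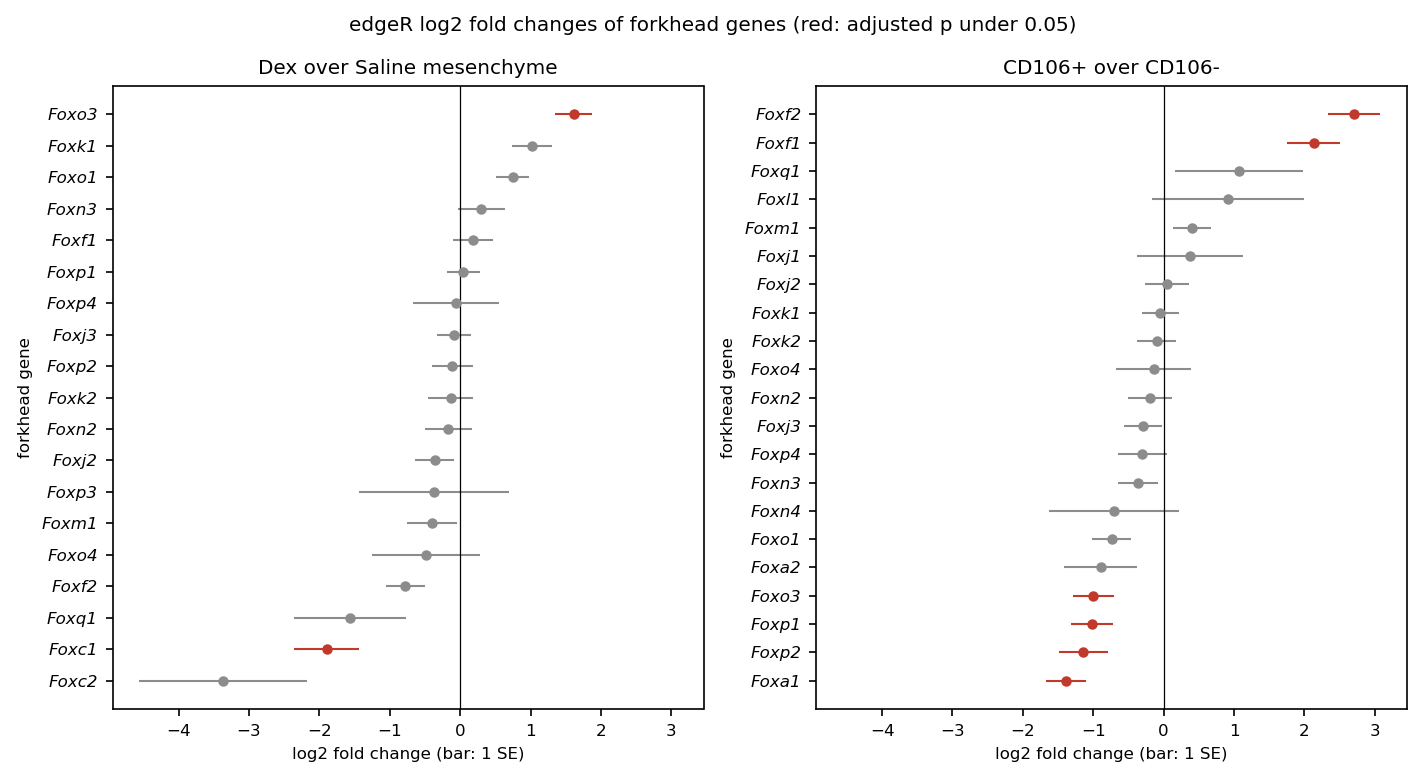
Log2 fold changes with bars of 1 SE from edgeR for the 19 forkhead genes tested between Dex and Saline mesenchyme (left) and the 21 tested between CD106+ and CD106- cells (right), red where the adjusted p was under 0.05. Foxo3 at 1.61 and Foxc1 at -1.90 are red on the left, and Foxf2 at 2.71, Foxf1 at 2.13 and 4 lower genes on the right.

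The CD106+ library from Dex treatment had no replicate, so its values are given, without a test, beside those of the 2 CD106+ libraries that also served the comparison of fractions. This library stood apart, since its endothelial markers summed to 2772 CPM, against 128 to 146 CPM in CD106+ libraries, and its immune markers to 107 CPM, against 7.62 to 15.7 CPM in CD106+ libraries. Its epithelial markers summed to 2077 CPM, against 2785 to 4435 CPM in CD106+ libraries, and its mesenchymal markers to 4902 CPM, against 5813 to 8500 CPM in CD106+ libraries. Their part in the values below was not tested. Of 25 forkhead genes at 1 CPM or more, 5 were more than 2-fold higher than the CD106+ mean and 6 more than 2-fold lower, on the scale of log2(CPM + 1), which understates changes of low genes. Over all 14468 genes at that level 33.8% lay past 2-fold, 15.7% higher and 18.2% lower.

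Foxp2 stood at 64.1 CPM in the Dex CD106+ library, against 544 and 287 CPM in CD106+ libraries (log2 ratio -2.68). Foxa1 stood at 13.2 CPM in the Dex CD106+ library, against 44.9 and 38.0 CPM in CD106+ libraries (log2 ratio -1.58). Both lay far below the CD106+ libraries. Foxp4 stood at 9.23 CPM in the Dex CD106+ library, against 22.9 and 30.4 CPM in CD106+ libraries (log2 ratio -1.43). For Foxm1 these levels were 60.2 CPM in the Dex CD106+ library, against 132 and 183 CPM in CD106+ libraries (log2 ratio -1.37). Foxf2 stood at 42.7 CPM in the Dex CD106+ library, against 74.2 and 111 CPM in CD106+ libraries (log2 ratio -1.10). These 3 too lay below both CD106+ libraries. Foxf1 stood at 75.5 CPM in the Dex CD106+ library, above the 58.2 and 68.8 CPM of CD106+ libraries.

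By column totals Foxo3 lay on the other side of its controls than in mesenchyme, while Foxo1 kept its order. Foxo3 stood at 117 CPM in the Dex CD106+ library, below the CD106+ libraries at 167 and 123 CPM (log2 ratio -0.30). With totals scaled by TMM it was 115 CPM, between the CD106+ libraries at 158 and 103 CPM, so its side depended on the scaling. Foxo1 stood at 146 CPM in the Dex CD106+ library, above the CD106+ libraries at 115 and 96.2 CPM (log2 ratio 0.46). Foxc1 and Foxc2 each stood at 4.22 CPM, on 16 counts, against 0.80 and 0.14 CPM for Foxc1 and 0.20 and 0.28 CPM for Foxc2 in CD106+ libraries. Foxp1 stood at 223 CPM in the Dex CD106+ library, against 217 and 149 CPM in CD106+ libraries. Whether the Dex effect differed between this library and sorted mesenchyme was not tested.

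The third set gave single cells 24 h after Dex or saline. The labels name no animals for the cells, so each group counts as 1 sample and is described without a test. Counts were summed over the 15 Dex cells and the 11 Saline cells, with exact 95% Poisson intervals that cover counting error only. Foxp1, Foxf1, Foxn2, Foxn3 and Foxf2 together held most of the forkhead counts. Of 15 forkhead genes at 1 CPM or more in either sum, 4 were more than 2-fold higher in Dex cells and 7 lower, against 67.8% of 11042 genes past 2-fold, 29.5% higher and 38.3% lower. The labels of all Dex cells carry the prefix Bridges and those of Saline cells do not. Whatever that prefix stands for cannot be told apart from Dex. The index number in the labels was shared by 1 Dex and 1 Saline cell and by no others.

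Foxp1 summed to 43.7 CPM in Dex cells (interval 40.2 to 47.4), against 400 CPM in Saline cells (390.1 to 410.5). Per cell, Foxp1 was 0 CPM at the lowest, 1.32 at the median and 452 at the highest in Dex cells, against 12.4, 374 and 828 CPM in Saline cells. It exceeded 100 CPM in 1 of 15 Dex cells and 6 of 11 Saline cells, and 75.6% of its counts in Dex cells came from 1 cell.

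Foxf1 summed to 33.1 CPM in Dex cells (30.0 to 36.3), against 107 CPM in Saline cells (102 to 113). Per cell, Foxf1 ranged over 0, 14.2 and 209 CPM (lowest, median, highest) in Dex cells, against 2.34, 36.0 and 452 CPM in Saline cells, which overlapped widely. Foxf2 summed to 70.8 CPM in Dex cells (66.3 to 75.5), against 87.8 CPM in Saline cells (83.1 to 92.7), and exceeded 100 CPM in 3 Dex and 4 Saline cells.

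Foxn3 summed to 257 CPM in Dex cells (249 to 266), against 123 CPM in Saline cells (117 to 129). Per cell, Foxn3 was 0, 38.0 and 873 CPM at the lowest, median and highest Dex cell, against 0.69, 5.04 and 634 CPM in Saline cells, and exceeded 100 CPM in 6 Dex and 3 Saline cells. Foxn2 summed to 138 CPM in Dex cells (131 to 144) and 159 CPM in Saline cells (153 to 166), and exceeded 100 CPM in 7 Dex and 6 Saline cells.

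Other differences rested on single cells. Foxo1 summed to 2.67 CPM in Dex cells and 51.5 CPM in Saline cells, with 78.6% of the Saline counts in 1 cell. Foxp2 summed to 4.04 CPM in Dex cells and 39.0 CPM in Saline cells, all of the Saline counts in 1 cell, and Foxj2 to 17.3 CPM in Dex cells and 39.3 CPM in Saline cells, with 97.8% of the Saline counts in 1 cell. Foxo3 summed to 1.98 CPM in Dex cells, on 26 counts with 92.3% of them in 1 cell, and to 0.07 CPM in Saline cells, on 1 count. No cell of either group held a count of Foxc1, Foxc2 or Foxj1.

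**Figure D4:**
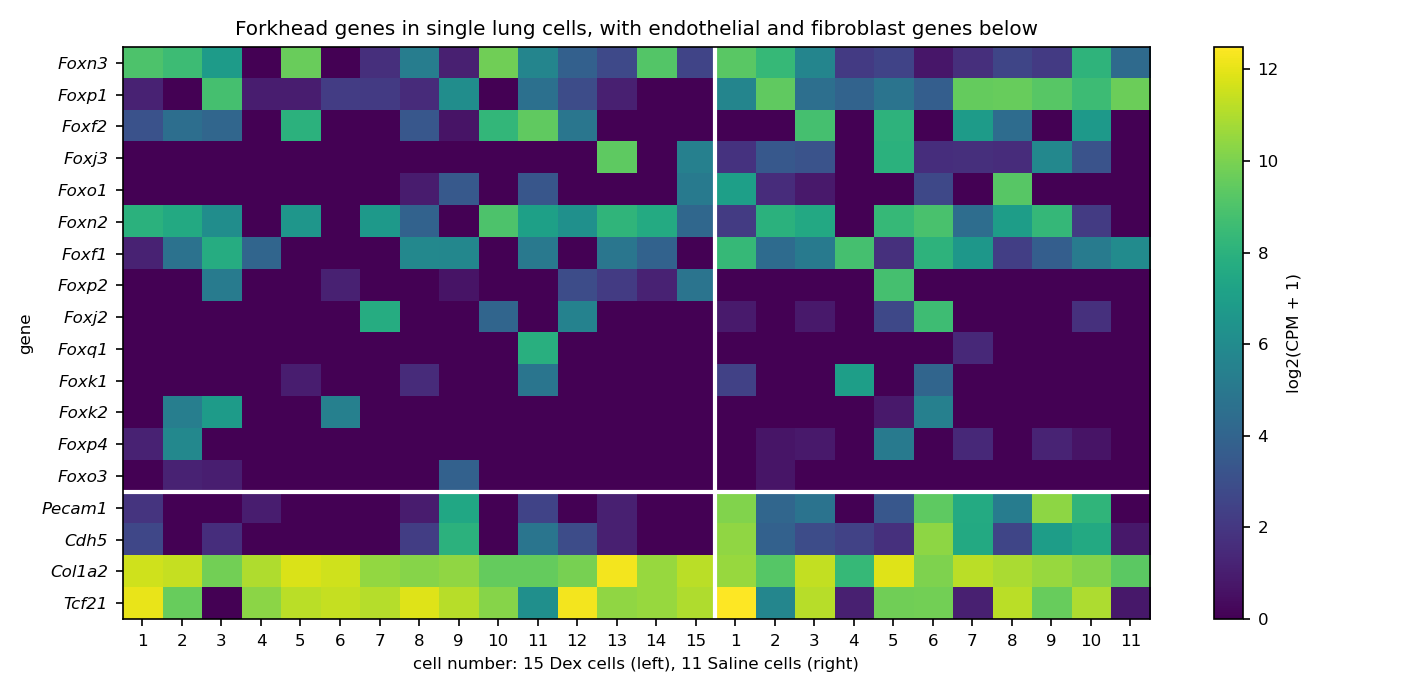
Level of 14 forkhead genes and 4 marker genes (rows) in each of the 15 Dex cells (left of the white line) and 11 Saline cells (right), coloured by log2(CPM + 1). Foxp1 is bright in 6 of 11 Saline cells and 1 of 15 Dex cells, and Pecam1 and Cdh5 are brighter among the Saline cells.

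Endothelial RNA differed between the 2 sets of cells. Pecam1, which marks endothelium, exceeded 100 CPM in 1 Dex and 5 Saline cells. Those cells also held the mesenchymal marker Col1a2, at 1349 CPM in the Dex cell and 1092 to 2311 CPM in the Saline cells. Their RNA was thus mixed, not endothelial alone. Without those cells Foxp1 summed to 39.9 CPM in Dex cells, against 416 CPM in Saline cells, Foxf1 to 29.9 CPM in Dex cells against 77.4 CPM in Saline cells, and Foxn3 to 298 CPM in Dex cells against 84.1 CPM in Saline cells. Foxj2 turned round, at 20.0 CPM in Dex cells against 1.10 CPM in Saline cells, and Foxo3 summed to 0.18 and 0.14 CPM. Of epithelial genes, Epcam had no count in any cell, but others did. Nkx2-1 had a count in 6 Dex and 5 Saline cells, and Scgb1a1 in 9 Dex and 10 Saline cells. Sftpc stood at 0.97 to 7597 CPM in Dex cells and 8.64 to 683 CPM in Saline cells. The shallowest Dex cell held 215623 counts, against 879285 for the shallowest Saline cell.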

How the data were processed

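Expected counts per gene symbol were deposited by the authors in 4 tables of the same 24371 genes, for 11 bulk libraries and 26 single cells. The genome build was mm10, and the tools named were Trim Galore, Bowtie2, MACS2, HOMER, Partek and TopHat2, per the submitters' processing notes. How reads were counted, and whether strand was used, is not given in the sources used here. Reads shared between genes can make such counts fractional. The Dex CD106+ table has a column code found in no label, and the column was assigned because only that sample's description names the table. A further 4 accessibility samples were not analysed here.

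The deposited expected counts were first rounded. Genes passing filterByExpr were scaled by TMM, and the 2 groups of each comparison were fitted alone in edgeR's quasi-likelihood framework with robust dispersion, with p-values adjusted by Benjamini-Hochberg over all genes tested and a threshold of 0.05 (R 4.3.3, edgeR 4.0.16, limma 3.58.1). The scripts were tested on simulated data. Replicate pairs differed beyond sampling noise, at a chi-square of 9.15 to 37.9 for each degree of freedom. Comparisons with 1 sample in a group used the log2 ratio of CPM plus a pseudocount of 1. Cells were neither clustered nor run through a doublet caller. Alternatives were other scalings, filters and pseudocounts, DESeq2 1.42.0, limma-voom, a replicate block, omission of each library, and covariates for Xist and chondrocyte markers.

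Forkhead genes named with values passed a threshold, reached a group mean of 10 CPM, or lay past 2-fold at 20 CPM or more where a group had 1 sample. Foxj1, Foxl1, Foxp3, Foxs1 and the marker Twist2 meet none of these and were added with their values known. Other genes are up to 4 of smallest p from lists of targets, regulators and markers. The forkhead genes and the lists were chosen with earlier results of these data known. Part of the list of Foxo regulators is not reported here. All 44 forkhead genes matched the RefSeq table of GRCm38. Plots were made with matplotlib 3.10.9.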

Additional observations from a re-analysis of the deposited data

Results flagged for a closer look

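In the 4 Dex mesenchyme pools, 3 of 20 forkhead genes examined had 1 pool far from the other pools. Foxn3 reached 84.3 CPM in Dex pool 1, while the other pools held 44.5 to 47.3 CPM. Foxa1 reached 2.70 CPM in Dex pool 3, with 0, 0 and 0.38 CPM in the others, and Foxa2 0.377 CPM in Dex pool 4, with 0 in the others, which is a single count. By its construction the rule is met by chance in about 1 in 20 groups of continuous values, a rate that does not carry over to genes near 0 counts.

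For 3 of 20 forkhead genes examined, the Dex samples lay on opposite sides of their controls in the 2 bulk sets, by CPM of column totals. The difference was not tested, and the share of all genes that meet this rule was not computed. In mesenchyme alone, 23.0% of all genes tested did not overlap between Dex and Saline pools. Foxc1 lay below both Saline pools in every Dex pool, while the Dex CD106+ library at 4.22 CPM lay above both CD106+ libraries. The same held for Foxc2, also at 4.22 CPM in the Dex CD106+ library. Foxo3 lay above both Saline pools in every Dex pool, while the Dex CD106+ library at 117 CPM lay below both CD106+ libraries. Those stood at 167 and 123 CPM, the latter close to the Dex CD106+ library. With totals scaled by TMM, Foxo3 in the Dex CD106+ library lay between them, at 115 CPM against 158 and 103 CPM.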

How the results depend on the processing

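In mesenchyme 306 genes passed, of which 2 were forkhead genes. Without the filter on low counts 598 and 4 passed, with DESeq2 512 and 4, with Xist as a covariate 186 and 1, and with chondrocyte markers as a covariate 27 and 0, where Foxc2 had a log2 fold change of 0.052. Leaving out 1 pool gave 179 to 335 genes and 1 to 2 forkhead genes. Between CD106 fractions 1239 genes and 6 forkhead genes passed, and leaving out 1 library gave 546 to 2756 and 2 to 8. Of 11 forkhead genes past 2-fold in the Dex CD106+ library, 5 were past it with a pseudocount of 5, and 3 passed in an edgeR fit that assumes the lone library to vary like the others. Of 11 in the single cells, 6 were past it with a pseudocount of 5 and 7 by the mean of each cell's CPM.

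Same-numbered samples did not deviate together (r of -0.05 and 0.05 in mesenchyme and 0.01 in CD106 fractions), which 2 samples a group cannot settle, and the numbers were not used as pairs. In both fractions, library 1 held less Foxf1, Foxf2, Foxk1 and Foxk2 than library 2 and more heart muscle RNA (971 and 71.4 CPM in CD106+, 92.9 and 23.0 CPM in CD106-). With the replicate number as a block, 154 genes and 1 forkhead gene passed in mesenchyme, where Foxc1 had an edgeR adjusted p of 0.12, and 1276 and 5 between CD106 fractions, where Foxp2 had one of 0.053. No Saline pool shares a number with Dex pools 3 and 4, so in mesenchyme the blocked Dex effect rested on pools 1 and 2 of each group. Fewer calls there may reflect this loss of pools.

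For the fold changes of 13 forkhead results under 186 alternatives, 162 kept their direction and side of the threshold, 17 lost the call, 6 gained one and 1 changed sign. The small number of pools, 2 in the Saline group and 2 in each fraction, limits the precision, and genes below about 10 CPM rested on few counts.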
